A study of Mus musculus with 6 samples.

Results

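The Bcl2 family controls the mitochondrial route of apoptosis. The 10 genes described here are Bcl2, Bcl2l1 and Mcl1, which restrain apoptosis, and Bax, Bak1, Bok, Bid, Bad, Bbc3 and Bcl2l11, which promote it. They were taken by symbol from the deposited gene table, and 10 of its 17256 genes matched. The 6 RNA-seq libraries come from the epithelium lining the antrum, the part of the stomach next to the gut, of C57BL/6 mice in which atrophic gastritis had been induced over 20 weeks with MNNG, an alkylating carcinogen, and a drug written as Ranitine. In 3 libraries the mice then received PEEPA-P5, known here only by that code name, by gavage over 2 weeks. In the other 3 they received vehicle for 2 weeks. Both groups thus carry the carcinogen exposure, and libraries of mice without gastritis were not analysed here. Whether each library is a different mouse is not in the labels, and the p-values below therefore cover library-to-library spread, possibly only technical.

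As background, proteins of the Bax type, once active, open the outer mitochondrial membrane and let cytochrome c out, which starts the caspases. Bcl2, Bcl-xL (from Bcl2l1) and Mcl-1 bind and hold back these effectors, and the BH3-only proteins, sensors of stress, bind the restraining proteins or activate the effectors directly. The balance of these 3 groups is set to a large part by protein binding, phosphorylation and degradation, which transcript levels do not show. Several of these genes also make isoforms of opposite action, such as the long and short forms of Bcl2l1, and the deposited values are sums over each gene.

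Total counts per library ran from 16388844 to 16903545. The epithelial markers Epcam, Cdh1, Krt8, Krt18, Krt19 and Cldn18 summed to 18427, 18292 and 21815 CPM (counts per library scaled to a common size with TMM factors) in PEEPA-P5 1, 2 and 3, against 17318, 14026 and 13753 CPM in vehicle 1, 2 and 3. Epithelium was thus present in every library, and the groups did not overlap in this sum. These general markers do not tell antrum from other parts of the stomach. Gast, the gene of the hormone gastrin, was at 1460, 1004 and 48.0 CPM in PEEPA-P5 1, 2 and 3. In vehicle 1, 2 and 3 it was at 1859, 1219 and 135 CPM. Whether the libraries differ in the part of the stomach sampled was not tested. The library PEEPA-P5 3 stood apart. It had the lowest summed markers of fibroblasts, at 25.1 CPM against 153 to 376 CPM with vehicle, of endothelium, at 6.05 CPM against 36.2 to 52.7 CPM with vehicle, and of parietal cells, at 28.7 CPM against 737 to 6382 CPM with vehicle. It was also the highest library for epithelial and pit cell markers, at 21815 and 172333 CPM. The groups as a whole did not overlap in the parietal and pit cell sums. For parietal cells, PEEPA-P5 1 and 2 were at 75.0 and 726 CPM, also below every vehicle library. For pit cells they were at 139943 and 139908 CPM, against 108213 to 128635 CPM with vehicle. Chief cell markers summed to 7572, 9948 and 2724 CPM in PEEPA-P5 1, 2 and 3, against 9276, 22864 and 84578 CPM in vehicle 1, 2 and 3, so vehicle 3, the lowest library for Bcl2l1 and Bak1, was the highest for these. The part of these markers in the results below was not tested. In such bulk tissue, fewer cells of a type and less RNA per cell cannot be told apart.

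The transcripts of the family covered a wide range of levels, and the order was nearly the same in every library. On the TPM scale (the share of a transcript in its library, corrected for transcript length by the authors), Bak1 was the most abundant member in 6 of 6 libraries, at 87.6 ± 3.22 TPM with PEEPA-P5 and 77.8 ± 19.3 TPM with vehicle (SD, n = 3 each, as for every mean below). Mcl1 followed at 64.1 ± 13.1 TPM with PEEPA-P5 and 53.9 ± 3.41 TPM with vehicle, and Bax at 53.2 ± 5.82 TPM with PEEPA-P5 and 49.1 ± 2.41 TPM with vehicle. Mcl1 and Bax are not told apart by their spread, since Bax lay above Mcl1 in PEEPA-P5 1. Bad, Bcl2l1 and Bok came next, between 26.5 and 46.7 TPM in all libraries, with Bad above Bcl2l1 in every library but PEEPA-P5 3. Bid and Bcl2l11 lay between 2.44 and 4.29 TPM and changed places from library to library. Bbc3 and Bcl2 were the scarcest, and Bcl2 was the lowest member in 5 of 6 libraries, at 0.87 ± 0.21 TPM with PEEPA-P5 and 0.95 ± 0.07 TPM with vehicle. Among the restraining genes, Mcl1 took 57.8%, 57.2% and 62.6% of their summed TPM in PEEPA-P5 1, 2 and 3, and 58.8%, 58.2% and 63.7% in vehicle 1, 2 and 3. Bcl2, for which the family is named, was thus a minor part of the restraining transcripts here in both groups.

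**Figure D1:**
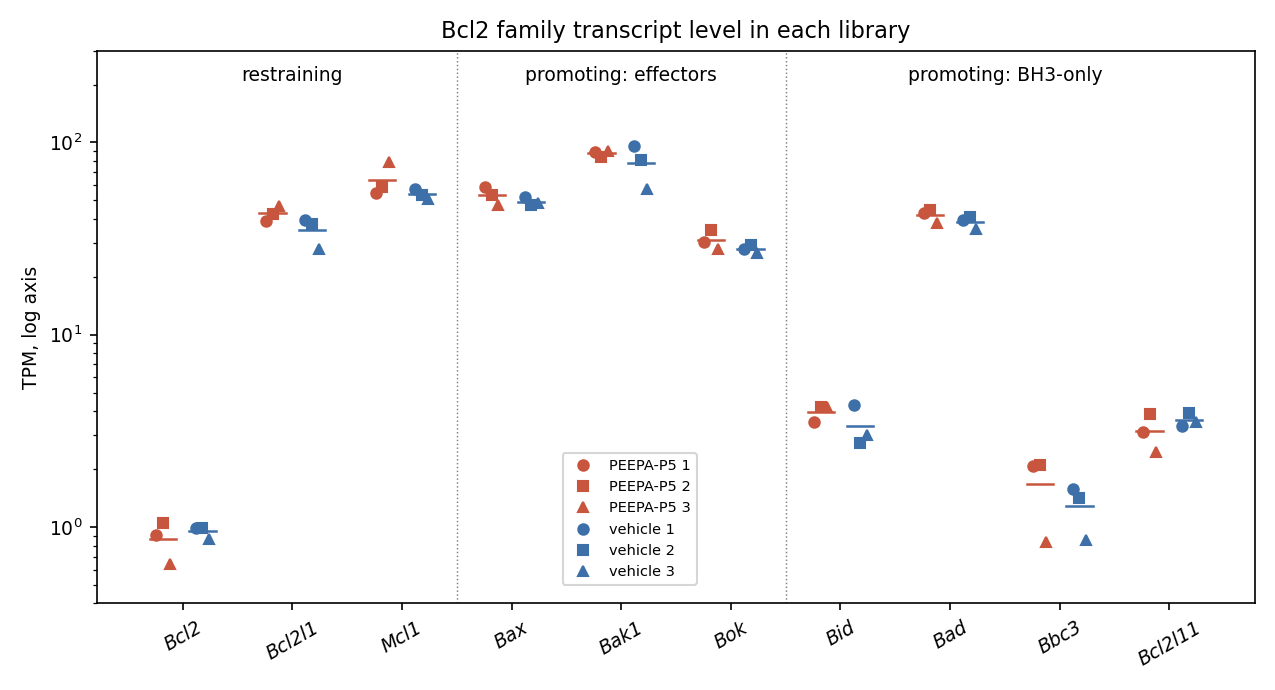
Level of each Bcl2 family member in TPM (log axis) in the 3 PEEPA-P5 libraries (red, left) and the 3 vehicle libraries (blue, right), by role, with the group mean as a bar and the library number as the point's shape. Bak1 is highest, Bcl2 and Bbc3 are lowest, and in every member the groups overlap on this scale.

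Mcl1 and Bcl2 mark both ends of the restraining levels, and each has 1 annotated start in RefSeq (GRCm38.p6), so the 250 bases before that start are shown for these genes, on the gene's strand, with GC boxes (GGGCGG on either strand), the binding motif of Sp1-type factors, in capitals. They lie at chr3:95658471-95658720 (+) for Mcl1 and at chr1:106714291-106714540 (-) for Bcl2.
Mcl1: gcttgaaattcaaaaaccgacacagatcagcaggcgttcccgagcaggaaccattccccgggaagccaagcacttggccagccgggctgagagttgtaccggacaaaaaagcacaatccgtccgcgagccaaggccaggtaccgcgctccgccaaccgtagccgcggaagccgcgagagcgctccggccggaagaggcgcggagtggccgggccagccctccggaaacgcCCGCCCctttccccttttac
Bcl2: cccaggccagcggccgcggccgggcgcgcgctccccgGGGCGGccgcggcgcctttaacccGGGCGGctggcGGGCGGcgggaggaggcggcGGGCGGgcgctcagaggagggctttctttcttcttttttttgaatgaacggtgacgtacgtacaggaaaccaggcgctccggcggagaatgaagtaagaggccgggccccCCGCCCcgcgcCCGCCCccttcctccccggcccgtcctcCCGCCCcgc
The stretch before the abundant Mcl1 holds 1 GC box and 64.4% G and C, and that before the scarce Bcl2 holds 7 GC boxes and 74.8% G and C. Of 32851 RefSeq stretches of the same length, 32.7% hold at least 1 GC box and 0.411% hold 7 or more, and the median G and C content is 52.4%. A match is a description of the letters and not of a bound site. Bcl2l1 has 3 annotated starts, none of them with a GC box in these 250 bases, and the deposited values do not say which start was used.

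No member of the family passed the test between PEEPA-P5 and vehicle. With edgeR's quasi-likelihood test and Benjamini-Hochberg adjustment over 13071 genes, 0 of the 10 members reached an adjusted p under 0.05, as did 0% of all genes, and the smallest adjusted p among members was 0.412. Without adjustment, 2 members had a p under 0.05, Bcl2l1 and Bok, both with positive fold changes, where 5.92% of all tested genes passed in that direction and 12.1% in either. DESeq2 called 0 members at an adjusted p under 0.05, beside 0.834% of all genes. With the library number as a block, which the data allow as a possible pairing, 1 member had an unadjusted p under 0.05, which was Bok, beside 6.62% of all genes in that direction and 13.7% in either. With library size as the only scaling, 0 members had an unadjusted p under 0.05, and leaving out vehicle 2 also left 0. The count was 1 when PEEPA-P5 2, PEEPA-P5 3 or vehicle 3 was left out, Bcl2l1 in the first case and Bok in the others. Without vehicle 1 it was 2 but not the same pair, as Bcl2l1 and Bak1 had an unadjusted p of 0.019 and 0.0132 and Bok one of 0.0736 (edgeR). Over all genes the 6 libraries gave 1576 at this p, and leaving out PEEPA-P5 1 gave 1008, leaving out vehicle 2 gave 717 and leaving out vehicle 3 gave 759. Of the 1576, 49.1% had positive fold changes. Other settings gave their own sets of genes at this p. The share was 35.9% of 1496 genes with upper-quartile factors and 23.6% of 1328 genes with library size alone. It was 23.4% of 1156 genes in a limma-trend fit of log2(TPM + 1). The direction of change among the genes at this p thus depends on the scaling. The sign of the fold change of each member was the same under every one of these scalings. The log2 fold change was above 0 in 8 of the 10 members and in 49.4% of all tested genes, with a median of 0.27 over the members and of -0.005 over all tested genes. All 6 epithelial and all 5 pit cell markers were also above 0, with a median of 0.31 in each list. Gland mucous and squamous markers had medians above 0 too. Those of parietal, chief, enteroendocrine, myeloid, endothelial, fibroblast and smooth muscle markers were below 0. Whether the values of the members go with the epithelial share of a library was not tested. The members were chosen with results of these data known, so these counts are a description.

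Of the restraining members, Bcl2l1, which encodes Bcl-xL, stood at 88.8, 95.1 and 120.0 CPM in PEEPA-P5 1, 2 and 3, against 86.9, 74.7 and 69.2 CPM in vehicle 1, 2 and 3. All PEEPA-P5 libraries lay above all vehicle libraries, but PEEPA-P5 1 and vehicle 1 were close. The log2 fold change was 0.40 with a standard error of 0.15 and a 95% interval from 0.05 to 0.74 (edgeR, unadjusted p 0.0291, adjusted p 0.412). The groups were separate on this scale only: in deposited TPM, PEEPA-P5 1 was at 39.19 and vehicle 1 at 39.27. It was 0.26 without PEEPA-P5 3 and 0.19 without both libraries numbered 3, and with the replicate block the unadjusted p was 0.0649.

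Mcl1, which encodes a short-lived restraining protein, was at 181.0, 187 and 297 CPM in PEEPA-P5 1, 2 and 3, against 183, 152 and 179 CPM in vehicle 1, 2 and 3. PEEPA-P5 3 was far above the other 5 libraries, while PEEPA-P5 1 lay below vehicle 1, so the groups overlapped. Its log2 fold change was 0.37 with a 95% interval from -0.11 to 0.85 (edgeR adjusted p 0.482), and 0.10 without PEEPA-P5 3.

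Bcl2 had between 72 and 124 counts per library. It was at 6.08, 7.24 and 4.84 CPM in PEEPA-P5 1, 2 and 3, against 6.79, 6.10 and 6.21 CPM in vehicle 1, 2 and 3. The highest and the lowest library were both PEEPA-P5 libraries. Bcl2 had a log2 fold change of -0.07 with a 95% interval from -0.59 to 0.45 (edgeR adjusted p 0.905), and it was 0.07 without PEEPA-P5 3. Bcl2 is well known from lymphocytes, and the 7 lymphocyte markers in the table summed to at most 1.15 CPM in any library, with no more than 6 counts for any of them in a library. Which cells the Bcl2 reads come from was not tested. The exons of Bcl2 overlap those of the antisense transcript D630008O14Rik, and without known strand reads in the overlapping stretch cannot be told apart.

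The effectors were closer together. Bok, an effector-type member that is held low by protein turnover, was at 40.3, 45.2 and 42.1 CPM in PEEPA-P5 1, 2 and 3, against 35.8, 33.6 and 37.7 CPM in vehicle 1, 2 and 3. The groups did not overlap in CPM. Its log2 fold change was 0.25 with a standard error of 0.10 and a 95% interval from 0.02 to 0.48 (edgeR, unadjusted p 0.035, adjusted p 0.412), and without each library in turn it stayed between 0.21 and 0.29. In TPM the groups overlapped, as PEEPA-P5 3 was at 27.85 and vehicle 2 at 29.31.

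Bak1, which sits in the outer mitochondrial membrane, was at 159, 145 and 182 CPM in PEEPA-P5 1, 2 and 3, against 164, 124 and 109 CPM in vehicle 1, 2 and 3. Vehicle 1 lay above 2 of the PEEPA-P5 libraries. Bak1 had a log2 fold change of 0.29 with a 95% interval from -0.10 to 0.69 (edgeR adjusted p 0.496), 0.48 without vehicle 1, 0.17 without vehicle 3 and 0.08 without vehicle 3 and PEEPA-P5 3 together. The annotation places Ggnbp1 on its opposite strand.

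Bax, the effector that moves from the cytosol to mitochondria, was at 36.7, 32.2 and 33.7 CPM in PEEPA-P5 1, 2 and 3, against 30.9, 25.3 and 32.3 CPM in vehicle 1, 2 and 3. Only PEEPA-P5 2 and vehicle 3 crossed, by a small margin, and the log2 fold change was 0.21 with a 95% interval from -0.08 to 0.51 (edgeR adjusted p 0.502), and 0.11 without vehicle 2. Of the sequence of Bax, 11.1% also occurs in transcripts of other genes, most of it in the overlapping gene model Gm45808.

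Of the BH3-only members, Bad, which growth factor signalling switches off by phosphorylation, was at 32.5, 32.6 and 34.3 CPM in PEEPA-P5 1, 2 and 3, against 29.0, 27.1 and 31.4 CPM in vehicle 1, 2 and 3. The groups did not overlap in CPM, and did in TPM, and the log2 fold change was 0.19 with a 95% interval from -0.05 to 0.42 (edgeR adjusted p 0.477). Bad shares its locus with Gpr137 on the other strand.

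Bid, which caspase-8 cleaves to link death receptors with mitochondria, was at 5.90, 6.83 and 7.999 CPM in PEEPA-P5 1, 2 and 3, against 6.90, 3.94 and 5.38 CPM in vehicle 1, 2 and 3. Vehicle 1 lay among the PEEPA-P5 libraries. Its log2 fold change was 0.35 with a 95% interval from -0.28 to 0.99 (edgeR adjusted p 0.586), 0.17 without vehicle 2 and 0.57 without vehicle 1. Its exons overlap those of Bcl2l13 on the other strand.

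Bbc3, which encodes Puma, a target of p53, had only 20 to 55 counts per library. It was at 3.13, 3.21 and 1.34 CPM in PEEPA-P5 1, 2 and 3, against 2.47, 2.00 and 1.54 CPM in vehicle 1, 2 and 3. The lowest library was PEEPA-P5 3, below every vehicle library, and the other PEEPA-P5 libraries were above every vehicle library. For Bbc3 this gave a log2 fold change of 0.36 with a 95% interval from -0.65 to 1.36 (edgeR adjusted p 0.729). Leaving out 1 library moved it to between 0.17, without PEEPA-P5 2, and 0.66, without PEEPA-P5 3, with 0.19 without PEEPA-P5 1, 0.54 without vehicle 1 and 0.20 without vehicle 3.

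Bcl2l11, which encodes Bim, was at 14.3, 17.4 and 12.2 CPM in PEEPA-P5 1, 2 and 3, against 14.7, 14.7 and 15.7 CPM in vehicle 1, 2 and 3. The vehicle libraries lay within the range of the PEEPA-P5 libraries. For Bcl2l11 this gave a log2 fold change of -0.04 with a 95% interval from -0.41 to 0.34 (edgeR adjusted p 0.935), and 0.08 without PEEPA-P5 3.

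**Figure D2:**
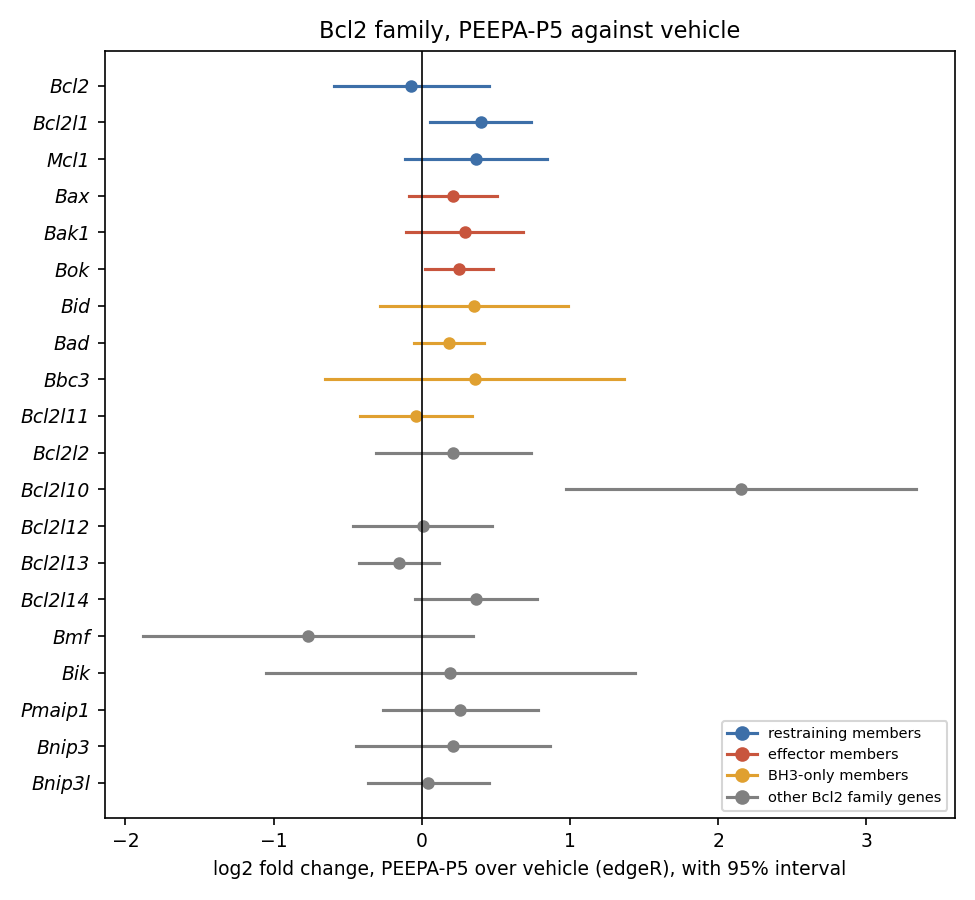
Log2 fold change (PEEPA-P5 over vehicle, edgeR) with its 95% interval for the 10 members by role and for the 10 tested genes of a list of other Bcl2 family genes. The intervals of Bcl2l1, Bok and Bcl2l10 lie above 0, and none of the 20 genes passed the adjusted threshold.

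Counted by role, the log2 fold change was above 0 in 2 of 3 restraining members, with a median of 0.37, and in 6 of 7 promoting members, with a median of 0.25. The groups did not overlap in CPM in 1 restraining and 2 promoting members, 3 of 10 in all and each with PEEPA-P5 above vehicle, beside 9.74% of all tested genes in that direction, 10.7% in the other and 20.4% in either. In deposited TPM they did not overlap in 0 members, beside 16.9% of all tested genes, and in CPM scaled by library size alone in 2 members, Bok and Bad, beside 19%. Without PEEPA-P5 3 the restraining median was 0.10 and the promoting median 0.23.

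Within a library, the restraining genes made up 29.2%, 30.96% and 37.5% of the summed TPM of the 10 members in PEEPA-P5 1, 2 and 3, against 30.4%, 30.9% and 31.2% in vehicle 1, 2 and 3. PEEPA-P5 3 lay above every vehicle library, PEEPA-P5 1 below every one, and PEEPA-P5 2 among them. The ratio of Bax to Bcl2, often quoted for this family, was 64.8, 50.8 and 73.9 in PEEPA-P5 1, 2 and 3, against 52.3, 47.6 and 55.8 in vehicle 1, 2 and 3, in TPM. The highest of these ratios was again that of PEEPA-P5 3, where Bcl2 was lowest and not Bax highest. The ratio of Bcl2l1 to Bax, which sets a more abundant restraining gene in the place of Bcl2, was 0.66, 0.80 and 0.99 in PEEPA-P5 1, 2 and 3, against 0.76, 0.80 and 0.58 in vehicle 1, 2 and 3. Both ratios overlapped between the groups. PEEPA-P5 3 was highest in both, although one ratio has the promoting gene on top and the other the restraining gene.

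**Figure D3:**
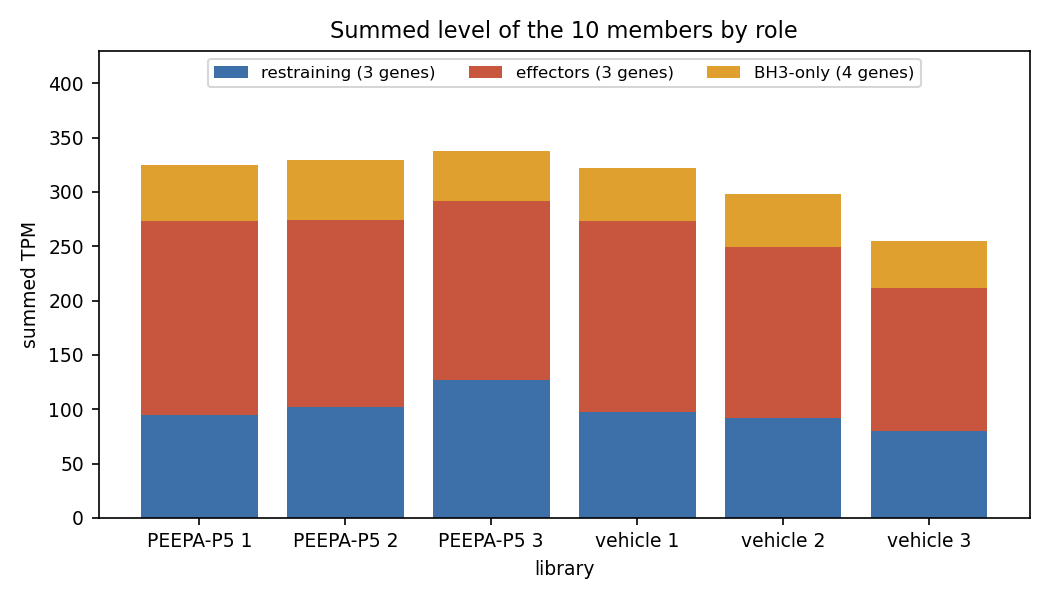
Summed TPM of the restraining, effector and BH3-only members (stacked bars from 0) in the 3 PEEPA-P5 libraries (left) and the 3 vehicle libraries (right). The restraining sum is 126.5 TPM in PEEPA-P5 3 and between 79.6 and 101.9 TPM in the other 5 libraries.

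PEEPA-P5 3 was the highest or the lowest of the 6 libraries in 8 of the 10 members in CPM, beside 59.9% of all tested genes. It was highest for Bcl2l1, Mcl1, Bak1, Bid and Bad and lowest for Bcl2, Bbc3 and Bcl2l11. In deposited TPM it was highest for Bcl2l1 and Mcl1 and lowest for Bcl2, Bbc3 and Bcl2l11. These are 5 of the 10 members, beside 56.5% of all tested genes. In CPM scaled by library size alone it was highest or lowest in 6 members, beside 57.6%. PEEPA-P5 3 is the library with the lowest stromal, parietal and enteroendocrine markers and the highest epithelial markers. In CPM, vehicle 2 was the lowest library for 5 members, Mcl1, Bax, Bok, Bid and Bad, and it was the highest or the lowest in 36.1% of all tested genes. In deposited TPM it was lowest for Bax and Bid and highest for Bcl2l11, beside 49.5% of all tested genes.

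**Figure D4:**
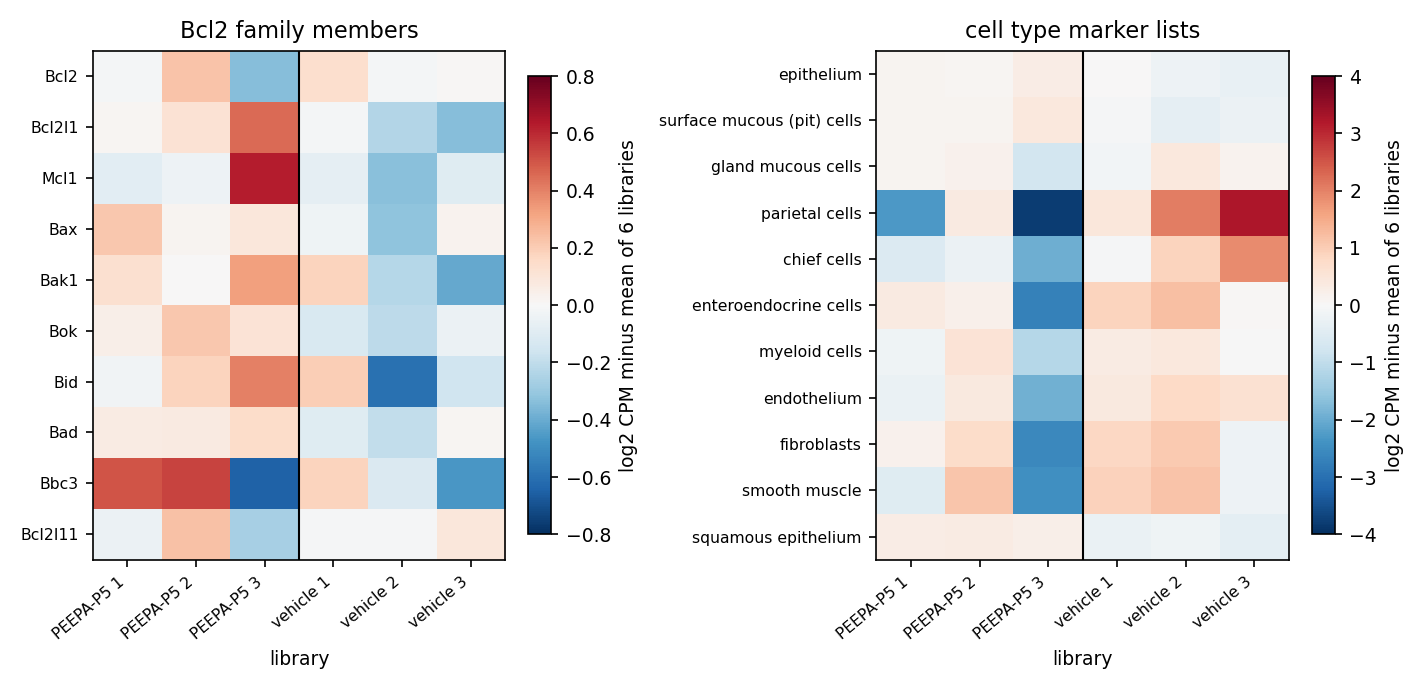
Log2 CPM minus the mean of the 6 libraries for each member (left panel) and for the mean of each cell type marker list (right panel, wider colour scale), with the PEEPA-P5 libraries left of the vehicle libraries. PEEPA-P5 3 is high for Mcl1 and Bcl2l1, low for Bcl2 and Bbc3, and low for fibroblast, endothelial, smooth muscle, parietal and enteroendocrine markers.

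Of 15 other Bcl2 family genes on a list, 10 had enough counts for the test, 8 of them with a log2 fold change above 0 and 2 below, with a median of 0.20, and 0 passed the adjusted threshold. One had an unadjusted p under 0.05, with a positive fold change, beside 5.92% of all tested genes in that direction and 12.1% in either. This was Bcl2l10, a family gene known mainly from the ovary, with 17, 13 and 21 counts in PEEPA-P5 1, 2 and 3, against 5, 4 and 3 counts in vehicle 1, 2 and 3. The groups were separate in CPM and in TPM, at a level of at most 1.25 TPM. Its log2 fold change was 2.16 with a 95% interval from 0.97 to 3.34 (edgeR, unadjusted p 0.0034, adjusted p 0.412). On the log2(TPM + 1) scale, which understates the change of low genes, the difference was 0.70, and a filter of 1 CPM in 3 libraries removed the gene.

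Bcl2l2, which encodes the restraining protein Bcl-w, was at 44.6, 43.8 and 77.0 CPM in PEEPA-P5 1, 2 and 3, against 46.4, 46.5 and 49.8 CPM in vehicle 1, 2 and 3. As with Mcl1, PEEPA-P5 3 was far above the rest. Without it the log2 fold change of Bcl2l2 was -0.10, against 0.21 over all libraries. Of the sequence of Bcl2l2, 12.8% also occurs in transcripts of other genes, most of it in the overlapping gene model Gm20521. Bcl2l14, a family gene of gut epithelium, was at 75.3, 66.2 and 90.8 CPM in PEEPA-P5 1, 2 and 3, against 72.4, 58.4 and 49.1 CPM in vehicle 1, 2 and 3, with overlap. The BH3-only gene Bmf was at 2.71, 3.85 and 1.01 CPM in PEEPA-P5 1, 2 and 3, against 3.91, 5.23 and 3.78 CPM in vehicle 1, 2 and 3. PEEPA-P5 3 was again the lowest library. Bmf had a log2 fold change of -0.77 with a 95% interval from -1.88 to 0.35 (edgeR adjusted p 0.514), -0.39 without PEEPA-P5 3 and -1.20 without PEEPA-P5 2. Pmaip1, which encodes the p53 target Noxa, was at 27.4, 29.9 and 30.3 CPM in PEEPA-P5 1, 2 and 3, against 29.2, 27.9 and 16.0 CPM in vehicle 1, 2 and 3, and Bik, a further BH3-only gene, lay between 1.28 and 5.43 CPM in all libraries. Bcl2a1a, Bcl2a1b, Bcl2a1d, Bcl2l15 and Hrk had at most 17 counts in a library and were not tested, and the 3 Bcl2a1 genes share 79.6% to 89.1% of their sequence with other genes, so that their counts are uncertain.

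Downstream of the family, a list of 18 genes of mitochondrial release, the apoptosome and its inhibitors was tested in full. Of these, 12 had a log2 fold change above 0, with a median of 0.22, and 0 passed the adjusted threshold. At an unadjusted p under 0.05 there were 5 with positive and 1 with negative fold changes, beside 5.92% and 6.14% of all tested genes. The 3 channel genes of the outer mitochondrial membrane were among them. Vdac2, whose product holds Bak at the membrane, averaged 731 ± 142 CPM in PEEPA-P5 libraries and 553 ± 53.0 CPM in vehicle libraries, a log2 fold change of 0.40, and of 0.23 without PEEPA-P5 3. Vdac1 averaged 347 ± 35.5 CPM in PEEPA-P5 libraries and 284 ± 5.24 CPM in vehicle libraries, and Vdac3 140.1 ± 9.22 CPM in PEEPA-P5 libraries and 118 ± 6.81 CPM in vehicle libraries. In each of the 3 the groups did not overlap (edgeR adjusted p 0.412 for each). Over the whole list they did not overlap in 6 of 18 genes, each with PEEPA-P5 above vehicle. The share of all tested genes was 9.74% in that direction and 10.7% in the other. Htra2, a mitochondrial protease that blocks caspase inhibitors, averaged 22.1 ± 1.54 CPM in PEEPA-P5 libraries and 17.3 ± 1.96 CPM in vehicle libraries. Birc5, which encodes survivin, a protein of dividing cells, averaged 35.4 ± 7.21 CPM in PEEPA-P5 libraries and 24.9 ± 5.08 CPM in vehicle libraries, with overlap. The 1 gene with a negative fold change was Aifm1, which encodes apoptosis-inducing factor, with a mean of 46.2 ± 3.78 CPM for PEEPA-P5 and 57.9 ± 9.15 CPM for vehicle, with overlap. Casp6, an executioner caspase and one of the 3 genes of the list with the most TPM, was at 127, 114 and 246 TPM in PEEPA-P5 1, 2 and 3, against 133, 116 and 107 TPM in vehicle 1, 2 and 3, so its mean rests on PEEPA-P5 3 (log2 fold change 0.59, and 0.06 without that library).

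Upstream, of 25 genes whose products regulate members of the family, 18 had a log2 fold change above 0, with a median of 0.12, and 0 passed the adjusted threshold. At an unadjusted p under 0.05 there were 3 with positive and 2 with negative fold changes, again beside 5.92% and 6.14% of all tested genes. The groups did not overlap in 3 genes with PEEPA-P5 above vehicle and 2 below, beside 9.74% and 10.7% of all tested genes. Trp53, which encodes p53, the activator of Bax, Bbc3 and Pmaip1, averaged 23.2 ± 4.22 CPM in PEEPA-P5 libraries and 32.7 ± 0.36 CPM in vehicle libraries, and every PEEPA-P5 library lay below every vehicle library (log2 fold change -0.49, edgeR adjusted p 0.412). Ppp3ca, a catalytic subunit of calcineurin, which dephosphorylates Bad, averaged 31.4 ± 0.21 CPM in PEEPA-P5 libraries and 48.7 ± 12.3 CPM in vehicle libraries, also without overlap. In the other direction, Dynll1, a dynein light chain that binds Bim, averaged 301 ± 24.6 CPM in PEEPA-P5 libraries and 215 ± 25.8 CPM in vehicle libraries (log2 fold change 0.49, edgeR adjusted p 0.412, and 0.0502 with DESeq2). Ywhaz, a 14-3-3 protein that holds phosphorylated Bad in the cytosol, averaged 754 ± 98.3 CPM in PEEPA-P5 libraries and 607 ± 48.8 CPM in vehicle libraries, with overlap. Fbxw7, which marks Mcl-1 for degradation, averaged 21.4 ± 2.28 CPM in PEEPA-P5 libraries and 17.3 ± 0.34 CPM in vehicle libraries, without overlap. Of the most abundant regulators, Tmbim6, known as Bax inhibitor 1, averaged 1267 ± 194 CPM in PEEPA-P5 libraries and 1133 ± 89.6 CPM in vehicle libraries, and Bag1, a co-chaperone that binds Bcl2, averaged 301 ± 45.2 CPM in PEEPA-P5 libraries and 262 ± 23.6 CPM in vehicle libraries. The groups overlapped in both.

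The genes most like a member over the 6 libraries were taken as those with the smallest root mean square difference of centred log2 CPM among 8302 other genes of at least 10 CPM on average. For Mcl1 they were Dnajb2, Glrx and Rusc1, at differences of 0.04 to 0.05 log2 units. All of them, like Mcl1, were highest in PEEPA-P5 3, which follows from choosing them by likeness to Mcl1. For Bak1 they were Tcf7l2, Plscr3 and Myadm, at 0.05 log2 units. For Bad, which varied little, they were Taldo1, Trappc3 and Nudt3, at 0.02 to 0.03 log2 units.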

How the data were processed

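RNA of antrum epithelium was sequenced in 6 libraries, 3 per group. The submitters' processing notes name RSEM 1.2.12, Bowtie2 2.2.5 and mm9, a mouse build, without their roles. Each gene and library has an expected count, an FPKM and a TPM value, deposited by the authors, per the file headers. The expected counts are estimated counts that were not normalized, 9.82% of them not whole, and were rounded before testing. FPKM and the authors' group means were left out. The labels' protocols name an Illumina TruSeq kit and 1 µg of total RNA, and do not state strand.

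edgeR 4.0.16 in R 4.3.3 was used for the test of the counts (TMM factors, edgeR's expression filter, robust quasi-likelihood test, no covariates, Benjamini-Hochberg adjustment over 13071 genes), and gave fold changes. Standard errors and 95% intervals were worked out from the fold change and the F statistic of this test, with a t distribution, and are approximate. All 10 members passed the filter. CPM uses TMM-scaled library sizes. Marker lists were averaged as log2 of CPM plus 0.5 for the plot by library. The code was tested on simulated data. At an adjusted p under 0.05 (edgeR), 40% of 100 changes of 2-fold and 74% of 100 changes of 4-fold were recovered, with 10 false calls. The simulated counts varied independently from gene to gene, without shifts shared by many genes of a library, as in PEEPA-P5 3. The shares recovered may therefore be too high for the real data. The fold changes of the members were smaller than 2-fold, so the lack of a call does not show that the groups are alike. Alternatives were DESeq2 1.42.0, limma 3.58.1 (voom, and limma-trend on TPM after adding 1 or 0.1 and taking log2), other scalings, other filters, the replicate block and left-out libraries. The members and lists were chosen with earlier results of these data known. All members are named, and any tested gene of the list of other Bcl2 family genes may be. Of the lists upstream and downstream of the family, the genes at an unadjusted p under 0.05 and the 3 with the highest mean TPM are named. Overlaps between genes and shared stretches of 31 bases were read from GENCODE M21, a later build than mm9. Promoter stretches are from RefSeq (GRCm38.p6), in which all 10 members matched.

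Libraries carry the numbers 1 to 3 in both groups, and the labels give these no meaning. In the tested genes, same-numbered libraries deviated together from their group means, with correlations of 0.237, 0.346 and 0.235. Each being above 0.1, the numbers were treated as possible pairs, a pairing read from the data because the labels state none. Among libraries of unlike number, PEEPA-P5 1 with vehicle 2 had a correlation of 0.176, also above 0.1. The others of unlike number lay between -0.349 and 0.027. Deviations within a group of 3 depend on each other, so these correlations are a weak guide to pairing.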

Additional observations from a re-analysis of the deposited data

How the results depend on the processing

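No member passed an adjusted p of 0.05 under any of the 18 alternatives, and 8 of the 10 members kept the direction of their fold change under all of them. With a library left out, the log2 fold change of Bcl2 lay between -0.22 and 0.069 and that of Bcl2l11 between -0.18 and 0.081, both above 0 without PEEPA-P5 3. Without both libraries numbered 3, Bcl2 was at 0.053, Bcl2l11 at 0.11 and Bcl2l2 at -0.068. With a library left out, Bcl2l2 lay between -0.10 and 0.36, below 0 without PEEPA-P5 3, and Bik between -0.19 and 0.67, below 0 without PEEPA-P5 2 or vehicle 3. The number of genes past the adjusted threshold was 110 with DESeq2, 1 with limma-trend on log2(TPM + 1) with no filter, and 0 to 1 with a library left out, the 1 being without vehicle 1. The number at an unadjusted p under 0.05 lay between 717 and 2070 with a library left out. The number of members at an unadjusted p under 0.05, which was 2, became 1 with upper-quartile factors, 0 with library size alone, 0 with each limma-trend fit on log2 TPM, 1 with the replicate block, 1 without both libraries numbered 3, and 0 to 2 with a library left out. The block changed no adjusted call. Overlap on other scales was compared after the data had been seen. Library size alone moved the median of all genes by less than 0.1, to -0.09. Counts of 20 to 124 limit what can be seen for Bbc3, Bcl2 and Bid, and their wide intervals do not show that the groups are alike.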
